A study of Mus musculus with 2 samples.

Results

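Cxcl9, Cxcl10, Cxcl16 and Ccl5, 4 genes for chemokines that draw T cells, were followed through GR-1+ cells of mouse breast tumors. They were chosen by gene symbol, and all 4 were found among the 28692 genes counted in both libraries. The cells came from tumors of 4T1, a triple-negative breast carcinoma line, grown in the mammary fat pad of female BALB/c mice that were 8 to 10 weeks old. One library, labelled 4T1p, stands for the parental line, whose tumors resist anti-PD1. The other, labelled 4T1m, stands for a polyclonal line made from it with the mutagen MNNG, whose tumors respond. Mice of both groups received anti-PD1 for 2 weeks. GR-1+ cells were enriched with beads, and GR-1 antibody binds Ly6G and Ly6C of neutrophils and monocytic cells. How many mice went into a library is not given in the sources used here.

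Chemokines are small secreted proteins that steer cells along a gradient. CXCL9 and CXCL10 bind CXCR3 on activated T cells and NK cells and are classical products of interferon-stimulated myeloid cells. CXCL16 is made as a membrane protein, is released by the protease ADAM10 and binds CXCR6, a receptor of tissue-resident and effector T cells. CCL5 draws T cells and monocytes, binds CCR1 among other receptors and is made by T cells as well as by macrophages. In tumors, macrophages and dendritic cells that make CXCL9 and CXCL10 are known for their part in the recruitment of T cells.

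There was 1 library per tumor line, so no difference between the lines was tested and no p-value is given. Every interval is a 95% interval that covers counting error only, exact Poisson for a level and exact binomial for a share or a ratio. The library labelled 4T1p held 1641 barcodes with a median of 2066 UMIs (unique molecular identifiers, 1 per captured transcript molecule), and the library labelled 4T1m held 2749 barcodes with a median of 2763. The methods of the study list each of these medians for the other line, so the libraries are named here only as the files label them and every direction rests on those labels. Exchanging the libraries would turn the sign of each ratio between them and leave its size. The filter of 250 to 5000 genes, at most 27000 UMIs and a limit on mitochondrial UMIs kept 1128 and 2092 cells, and the libraries shared 0 barcodes.

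Cxcl9 and Cxcl10 are neighbors on the minus strand of mouse chromosome 5 (GRCm38), Cxcl9 at chr5:92321347-92328079 and Cxcl10 at chr5:92346638-92348889, with 18558 bases between them. Cxcl16 lies at chr11:70453983-70459984 and Ccl5 at chr11:83525778-83530518, both on the minus strand. The gene identifiers are ENSMUSG00000029417 for Cxcl9, ENSMUSG00000034855 for Cxcl10, ENSMUSG00000018920 for Cxcl16 and ENSMUSG00000035042 for Ccl5, and the annotated transcript with the most exons has 4, 4, 6 and 3 of them. RefSeq promoter windows of the GRCm38.p6 build, from 250 bases before to 50 bases after the gene start, were at hand for Cxcl9 and Cxcl10. They are printed because these neighbors, both ligands of CXCR3, differed in the cells that held them. Capitals mark matches, on either strand, to 3 motifs of interferon and NF-kB signaling. These are the interferon-gamma activated site TTCNNNGAA, the interferon-stimulated response element GAAANNGAAA and the kB motif.
Cxcl9, chr5:92328030-92328329, minus strand: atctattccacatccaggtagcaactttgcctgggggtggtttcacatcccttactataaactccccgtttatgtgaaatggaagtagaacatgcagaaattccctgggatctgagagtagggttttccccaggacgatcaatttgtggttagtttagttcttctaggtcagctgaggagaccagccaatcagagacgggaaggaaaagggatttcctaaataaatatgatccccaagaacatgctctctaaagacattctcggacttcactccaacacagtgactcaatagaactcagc
Cxcl10, chr5:92348840-92349139, minus strand: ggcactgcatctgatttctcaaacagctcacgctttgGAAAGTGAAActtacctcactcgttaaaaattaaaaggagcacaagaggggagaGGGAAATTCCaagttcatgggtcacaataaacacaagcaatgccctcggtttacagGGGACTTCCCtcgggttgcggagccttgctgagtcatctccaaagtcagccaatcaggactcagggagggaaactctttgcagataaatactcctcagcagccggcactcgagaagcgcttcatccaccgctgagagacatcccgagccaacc
The Cxcl10 window held 1 response element, from 213 to 204 bases before the start, and 2 kB matches, from 159 to 150 and from 103 to 94 bases before it. No match to the 3 motifs was found in the Cxcl9 window. Among all 32851 promoter windows, 3.44% held the response element, 4.51% the kB motif and 8.3% the activated site. A match is a stretch of letters, not a measured binding site. Only full matches in these short windows were counted, so a window without one may still hold a site. A link between the motifs and the cells that held each gene was not tested.

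Clustering without the 4 chemokines gave 12 clusters, and their lineage was read from fixed marker lists. Macrophage-like cells (12 markers, among them Csf1r, Adgre1 and C1qa) filled 5 clusters with 684 cells of the library labelled 4T1p and 730 of the library labelled 4T1m. Cluster 6 was led by Klrb1b, Ifit2 and Spon1, cluster 3 was led by Sdc1, Met, Inhba and Il7r, and cluster 7 by Cd163, Cbr2 and Ednrb. Cluster 2 was led by Tmem176b, Tmem176a and Aif1, and cluster 8 by the cell division genes Birc5, Ube2c and Top2a. Neutrophil-like cells (12 markers, among them S100a8, S100a9 and Csf3r) filled clusters 0, 4, 5 and 9 with 251 and 1023 cells. Cluster 0 was led by Mirt1 and Il1f9, cluster 4 by Slc2a3 and Steap4, cluster 5 by Ccdc126, and cluster 9 by the granule genes Camp, Ngp and Ltf of immature neutrophils. Cluster 1, led by Fabp5, AY036118 and Lgals1, had a median of only 902 UMIs and no lineage marker among its 10 leading genes, and stayed unnamed. The median depth was 15114.5 UMIs in cluster 6 and 11379 in cluster 3, whereas clusters 2 and 8 had medians of 1181 and 1497, so shares of cells with a UMI are also given after each cell was thinned to 1000 UMIs.

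**Figure D1:**
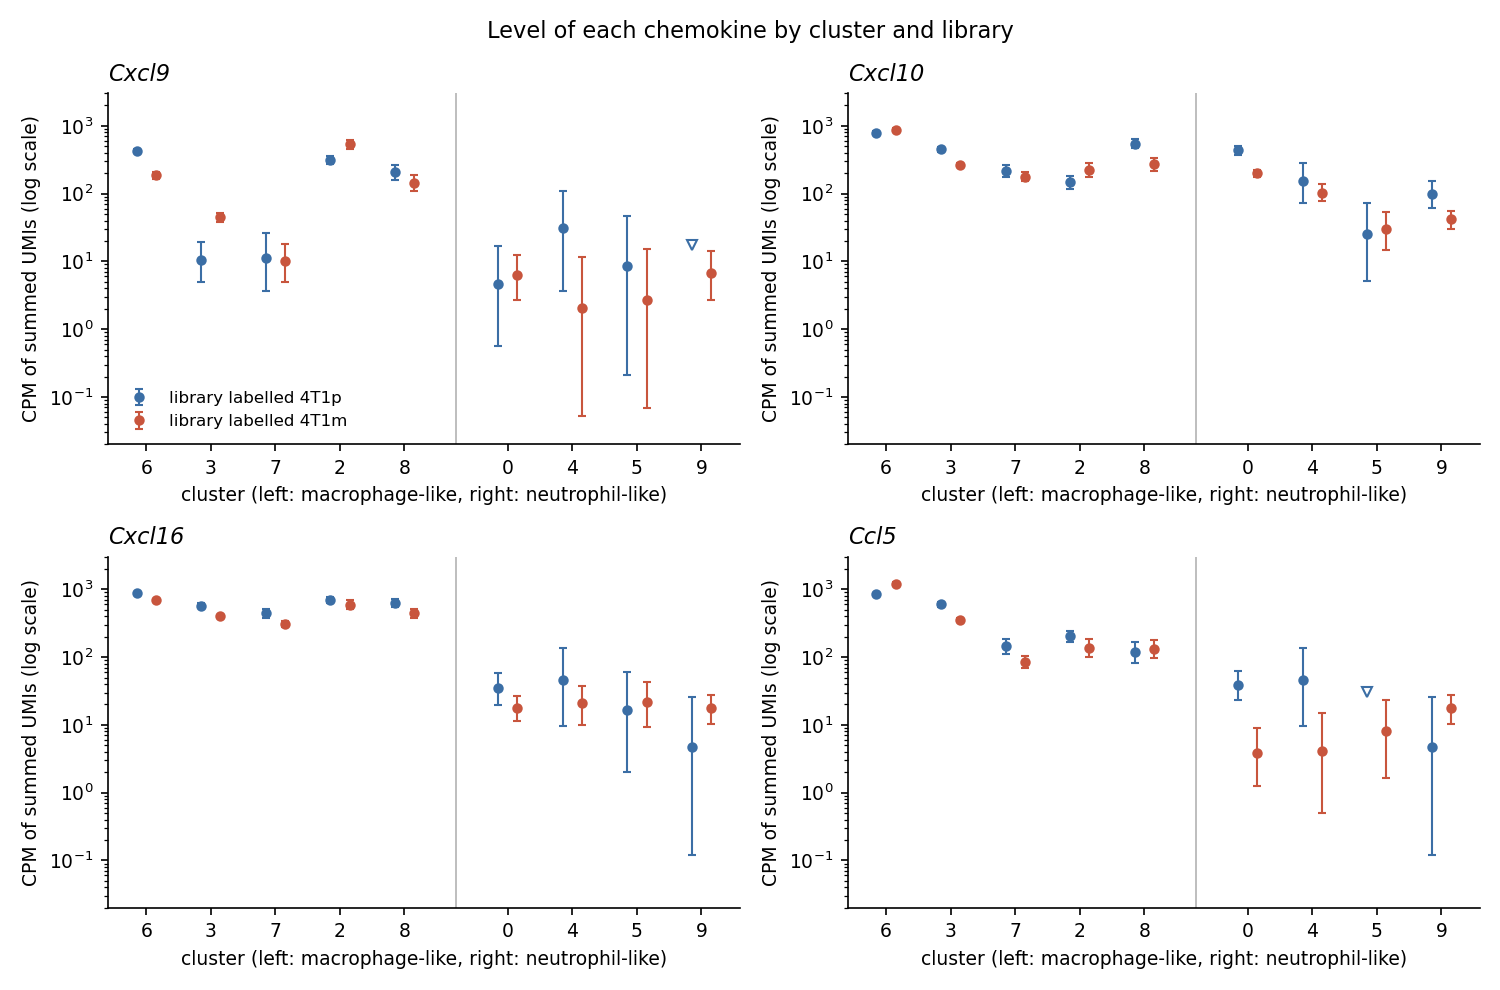
Level of each chemokine (y axis, CPM, UMIs of the gene per 1000000 UMIs, log scale) in the macrophage-like and neutrophil-like clusters (x axis, cluster number), with 1 point per library and exact 95% Poisson intervals; inverted open triangles mark the upper limit where no UMI was counted. Cxcl16 ran from 311 to 885 CPM in macrophage-like clusters and from 4.7 to 46.0 CPM in neutrophil-like ones, whereas Cxcl10 reached 434 CPM in neutrophil-like cluster 0 of the library labelled 4T1p.

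All 4 chemokines were mostly macrophage transcripts, and Cxcl10 was the one that neutrophil-like cells also held above the share found for 11 of the 12 macrophage markers. In macrophage-like cells the summed level of Cxcl16 was 727 CPM (701 to 752) in the library labelled 4T1p and 471 CPM (454 to 487) in the library labelled 4T1m. Ccl5 stood at 584 CPM (561 to 607) and 505 CPM (489 to 522), and Cxcl10 at 548 CPM (526 to 570.1) and 405 CPM (389.6 to 419.9). Cxcl9 was the lowest of the 4, at 258 CPM (243 to 274) and 104 CPM (96.1 to 111). By rank of summed UMIs among the 13606 and 14740 genes with a UMI in these cells, Cxcl16 stood at place 223 and 322, Ccl5 at 261 and 295, Cxcl10 at 270 and 371, and Cxcl9 at 537 and 1429. The assay counts 3′ ends, so these levels are not divided by gene length.

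In neutrophil-like cells Cxcl10 was counted at 267 CPM (233 to 305) and 114 CPM (103 to 127). Cxcl16 was at 25.4 and 18.6 CPM, Ccl5 at 25.4 and 8.83 CPM and Cxcl9 at 6.04 and 5.36 CPM. As a share of the macrophage-like level of the same library, that is 48.7% and 28.2% for Cxcl10, 3.49% and 3.96% for Cxcl16, 4.35% and 1.75% for Ccl5 and 2.34% and 5.18% for Cxcl9. The 12 macrophage markers, summed, were counted in neutrophil-like cells at 3.47% and 4.98% of their macrophage-like level, with medians of 4.13% and 4.32% over the markers. Of the 12 markers, 11 ran from 2.28% to 7.07% and from 2.10% to 7.80%, and Cd68, a lysosomal protein of phagocytes, stood at 53.9% and 50.3%, above Cxcl10. Cxcl9, Cxcl16 and Ccl5 in neutrophil-like cells were thus near the level of those 11 markers, and Cxcl10 was above it in both libraries. Whether such low counts are background or expression was not tested. In the library labelled 4T1p, 17 of the 21 Ccl5 UMIs lay in cluster 0, which held 52.1% of all UMIs of these cells. The thinned shares of neutrophil-like cells with a UMI, at median depths of 2717 and 2481 UMIs, were 1.31% and 0.638% for Cxcl9, 1.75% and 1.81% for Cxcl16, 1.31% and 0.319% for Ccl5, and 10.48% and 4.47% for Cxcl10. On the log2 scale the macrophage-like over neutrophil-like ratio, as the mean of both libraries, was 5.18 for Ccl5, 4.84 for Cxcl9, 4.75 for Cxcl16 and 1.43 for Cxcl10. Without the 1% of cells with the most UMIs of the gene it was 7.80 for Ccl5, 5.38 for Cxcl16 and 2.26 for Cxcl10. Neutrophil-like cells had only 21 and 28 Ccl5 UMIs before any cell was left out, so the 7.80 rests on very few counts. Within the libraries the ratio of Cxcl10 was 1.04 (0.84 to 1.24) in the one labelled 4T1p and 1.82 (1.67 to 1.99) in the one labelled 4T1m. The intervals did not overlap, but they cover counting error only, and few neutrophil-like cells held many of the Cxcl10 UMIs.

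The CXCR3 ligand Cxcl9 was held by few cells with many transcripts each. In cluster 6 of the library labelled 4T1p, 853 UMIs of Cxcl9 were counted in 39 of 134 cells, 3 of which held 163, 117 and 99 UMIs. In the same cluster of the library labelled 4T1m, 322 UMIs lay in 39 of 118 cells, with 54, 31 and 29 UMIs in the top 3. The levels were 423 CPM (395 to 452) and 187 CPM (167 to 208), with intervals that did not overlap, while the share of cells with a UMI was 29.1% and 33.1%. After thinning the shares were 12.98% (7.74 to 19.96) of 131 cells and 11.97% (6.70 to 19.3) of 117 cells, with overlapping intervals. In the library labelled 4T1p 4 cells, and in the library labelled 4T1m 6 cells, held 50% of the Cxcl9 UMIs of cluster 6.

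Beyond cluster 6, Cxcl9 was found in the shallow clusters 2 and 8 and hardly in clusters 3 and 7. Ptprc, which the study required of each cell and the main filter here did not, was sparse in clusters 2 and 8. It had a UMI in 18.8% and 42.4% of cluster 2 cells and in 17.7% and 36.6% of cluster 8 cells. Neutrophil-like cluster 4, with median depths of 2026 and 1584 UMIs, had it in 74.2% and 87.6%. Cluster 2 had 313 CPM (269 to 361) and 536 CPM (459 to 621), in 66 of 304 and 25 of 125 cells, and cluster 8 had 207 CPM (159 to 266) and 145 CPM (108 to 191). Cluster 3 had 10.4 CPM (4.98 to 19.1) and 44.6 CPM (37.7 to 52.4), and cluster 7 had 11.1 and 10.0 CPM. Cluster 3 had a median depth of 11187.5 and 11409.5 UMIs a cell and cluster 7 of 2473 and 7652.5, all above those of clusters 2 and 8. The order of the clusters by Cxcl9 level was 6, 2, 8 in the library labelled 4T1p, with intervals of neighbors that did not overlap, and 2, 6, 8 in the library labelled 4T1m, where those of clusters 6 and 8 overlapped. In clusters 0, 4, 5 and 9 the level ran from 0 to 30.7 CPM, with at most 8 UMIs in any cluster and library. Markers of dendritic cells, another known source of CXCL9, were counted 159 times in cluster 2 of the library labelled 4T1m and 1 time in that of the library labelled 4T1p. In the former, 2 cells had a UMI of at least 2 of these markers, and they held 0 of its 174 Cxcl9 UMIs. At its median depth of 1472 UMIs this rule can miss dendritic cells, so whether they were a source was not tested.

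Cxcl10, the other CXCR3 ligand measured, was spread over more cells. In cluster 6 it was counted at 788 CPM (750 to 828) in 92 of 134 cells and at 877 CPM (834 to 923) in 90 of 118 cells. Cluster 8 followed in the library labelled 4T1p with 547 CPM (466 to 639) and cluster 3 with 448 CPM (407 to 493), whose intervals overlapped, and in the library labelled 4T1m these clusters had 270.5 CPM (219 to 331) and 265 CPM (248 to 283). Clusters 7 and 2 ranged from 148 to 225 CPM over both libraries. The thinned share of cells with a UMI in cluster 6 was 32.8% (24.9 to 41.6) and 35.0% (26.5 to 44.4), which differed by less than their intervals.

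Among neutrophil-like clusters, Cxcl10 was highest in cluster 0, the cluster of Mirt1 and Il1f9, with 434 CPM (374 to 500) and 200.5 CPM (177 to 226). It was counted there in 27 of 131 and 37 of 414 cells, at most 37 and 69 UMIs in a cell, and the thinned shares were 14.3% (8.69 to 21.6) and 5.65% (3.62 to 8.36). The median depth of these cells was 3174 and 2855 UMIs. B cell-like cells of the library labelled 4T1m, with a median of 3772 UMIs, had 1 UMI of Cxcl10 in 33 cells. The library labelled 4T1p had only 1 B cell-like cell, so no such count could be set beside its level. Free RNA and doublets as sources of Cxcl10 in cluster 0 were not tested. In cluster 4 the level was 153 CPM (73.5 to 282) and 103 CPM (76.8 to 136), in cluster 9 it was 98.8 CPM (61.2 to 151) and 41.8 CPM (30.2 to 56.3), and in cluster 5 it was 25.3 and 29.6 CPM. Neutrophils of the granule cluster 9 were the deepest of the lineage, with medians of 5995 and 5129.5 UMIs, and stood below clusters 0 and 4 in both libraries.

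**Figure D2:**
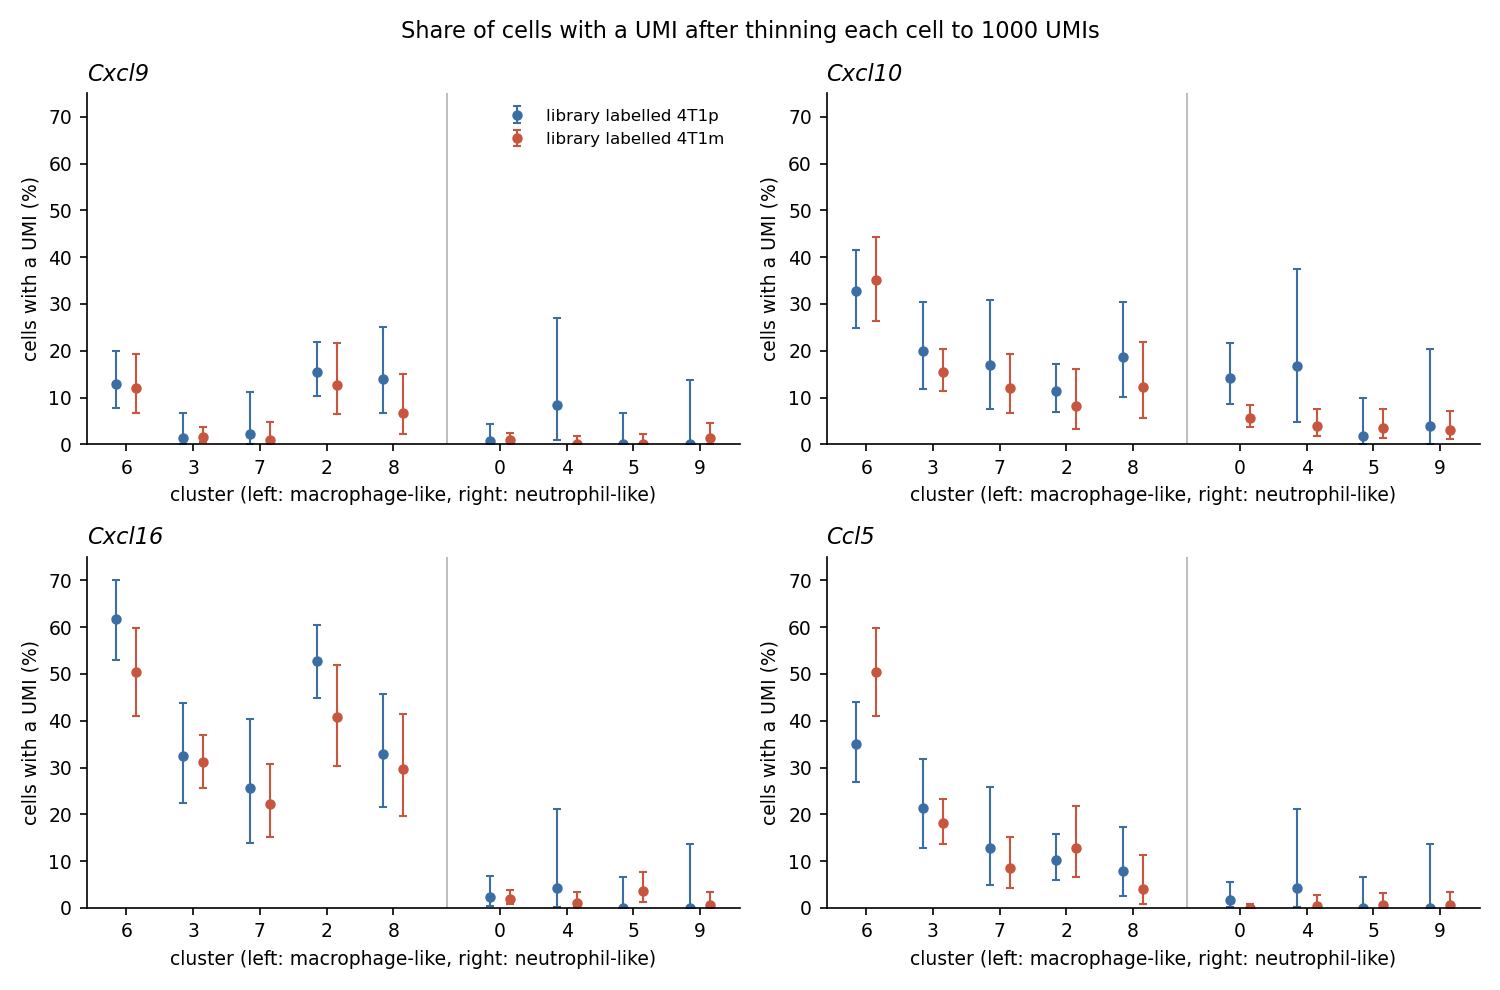
Percent of cells with at least 1 UMI of each chemokine (y axis) after each cell was thinned to 1000 UMIs, by cluster (x axis) and library, with exact 95% binomial intervals; cells with fewer UMIs are left out. Cxcl16 was found in 61.8% and 50.4% of cluster 6 cells against 12.98% and 11.97% for Cxcl9.

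Cxcl16, the membrane-bound ligand of CXCR6, was the most widespread of the 4. In cluster 6 it was counted in 130 of 134 cells (97.01%) and in 112 of 118 cells (94.9%), at 885 CPM (844 to 927) and 691 CPM (653 to 732). The cell with the most UMIs held 38 and 34 of them, and 39 and 33 cells were needed to hold 50% of the UMIs. Its level varied less among macrophage-like clusters than that of the other members, from 443 to 885 CPM in the library labelled 4T1p and from 311 to 691 CPM in the library labelled 4T1m. In both libraries the order was 6, 2, 8, 3, 7, with overlapping intervals for clusters 2 and 8, for 8 and 3 and, in the library labelled 4T1m, for 6 and 2. The unnamed cluster 1 held Cxcl16 at 451 CPM (385 to 525) and 285 CPM (242 to 334). That is within the range of the macrophage-like clusters in the library labelled 4T1p and under it in the library labelled 4T1m. Cxcl9 stood at 65.2 and 67.6 CPM there, above clusters 3 and 7 in both libraries. Cxcl10 stood at 59.8 and 60.1 CPM, below every macrophage-like cluster, and Ccl5 at 111 and 122 CPM.

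Ccl5 was highest in cluster 6 and next highest in cluster 3. The level in cluster 6 was 852 CPM (812 to 894) and 1212 CPM (1160.35 to 1265), in 91 of 134 and 100 of 118 cells. Cluster 3 had 605 CPM (557 to 656) and 352 CPM (332 to 373), and clusters 7, 2 and 8 ranged from 85.8 to 205 CPM. Ccl5 and Cxcl9 ranked among the 5 leading genes of cluster 6, at folds of 5.27 and 5.36 over all other kept cells, although neither had been used to form it. The thinned share of cluster 6 cells with Ccl5 was 35.1% (27.0 to 43.9) and 50.4% (41.0 to 59.8), higher in the library labelled 4T1m as the level was, but with intervals that overlapped.

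CCL5 is also a product of T cells, and the T cell-like cluster 11 was checked. It held 114 Ccl5 UMIs in 4 of its 22 cells in the library labelled 4T1m, 92 of them in 1 cell, and 7 UMIs in 1 of 7 cells in the library labelled 4T1p. T cell-like cells held 3.12% and 0.270% of all Ccl5 UMIs of the kept cells in the libraries labelled 4T1m and 4T1p. In cluster 6 the 6 T cell markers summed to 2.48 and 5.80 CPM and the 6 NK cell markers to 0.496 and 0.580 CPM, with 5 of the 6 NK cell markers at 0 in both libraries, against 852 and 1212 CPM of Ccl5. Macrophage-like cells held 97.3% and 94.3% of the Ccl5 UMIs in the libraries labelled 4T1p and 4T1m. These shares describe cells enriched for GR-1, with only 7 and 22 T cell-like cells among them. They do not give the part of T cells in the Ccl5 of the whole tumor.

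**Figure D3:**
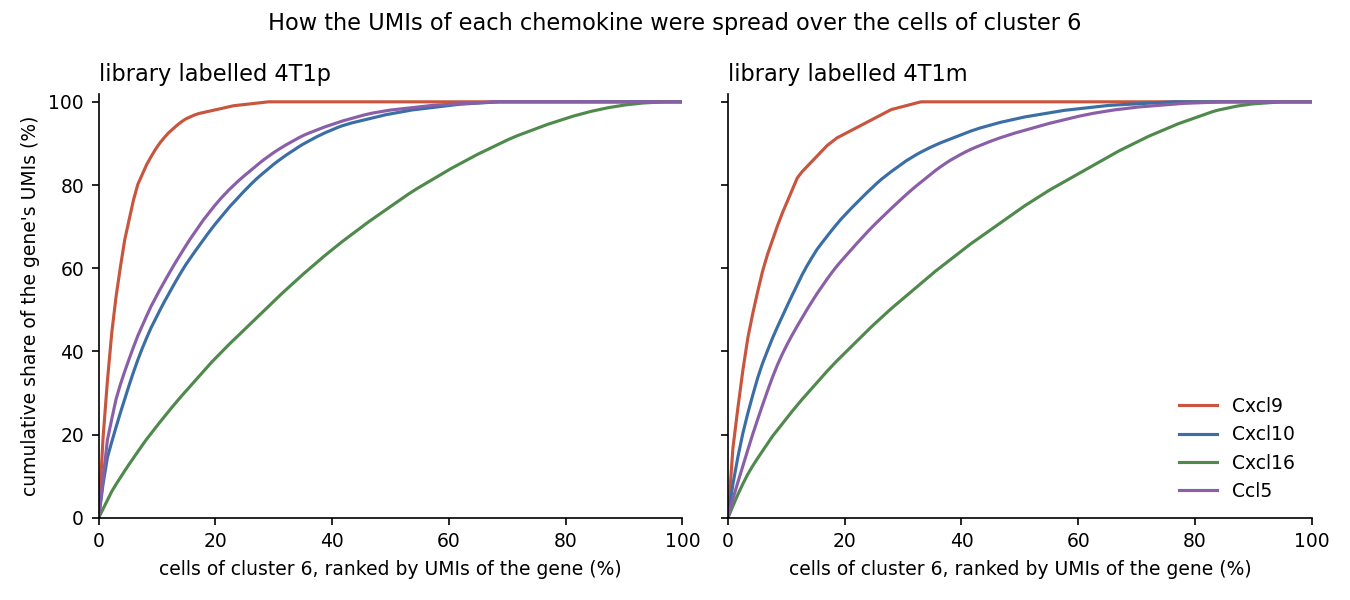
Cumulative percent of each chemokine's UMIs (y axis) against the percent of cluster 6 cells ranked by their UMIs of that gene (x axis), 1 panel per library. The curve of Cxcl9 rises first, since the top 10% of cells held 90.0% and 76.1% of its UMIs, and that of Cxcl16 last, at 22.9% and 24.1%.

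The next question was how the levels differed between the tumor that resists and the one that responds to anti-PD1. In macrophage-like cells the summed level of each of the 4 members was lower in the library labelled 4T1m, although for Ccl5 the direction turned to 0.12 when each cell was thinned to 1000 UMIs and to 0.10 for the mean of per-cell CPM, which weights shallow cells like deep ones. By that mean the ratio of Cxcl10 was only -0.073. The log2 ratio of 4T1m over 4T1p was -1.32 (-1.46 to -1.18) for Cxcl9, -0.63 (-0.70 to -0.56) for Cxcl16, -0.44 (-0.52 to -0.36) for Cxcl10 and -0.21 (-0.28 to -0.13) for Ccl5. Of the 4 members, 1 was beyond 1 in size, Cxcl9, as were 9.52% of the 8855 genes with at least 50 UMIs in these cells, while 2.01% were lower and 7.51% higher by more than 1. The median log2 ratio of all these genes was 0.11, with quartiles of -0.25 and 0.52. Ratios below that of Cxcl9 were found for 0.621% of the genes, below that of Cxcl16 for 7.11%, below that of Cxcl10 for 13.9% and below that of Ccl5 for 27.7%; with the libraries exchanged, these would be the shares of genes above each member. The log2 ratio of Cxcl9 was -1.98 when the limit on mitochondrial UMIs was 5%. That limit lies below the median share of cluster 6, 5.24% and 5.57% in the libraries labelled 4T1p and 4T1m. It kept 2045 cells, which were clustered anew and gave 856 macrophage-like cells, so the value also reflects a changed set of cells.

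These sums mix clusters that the libraries held in different amounts. Cluster 6 gave 46.6% of the macrophage-like UMIs of the library labelled 4T1p and 25.3% of the library labelled 4T1m, and cluster 3 gave 22.3% and 48.7%. With each cluster weighted equally, a choice made after the data were seen, the log2 ratio was -0.06 for Cxcl9, -0.40 for Cxcl16, -0.24 for Cxcl10 and -0.0027 for Ccl5. Within clusters, Cxcl16 was the only member that was lower in the library labelled 4T1m in all 5, by -0.36 (-0.46 to -0.25) in cluster 6, -0.53 (-0.67 to -0.38) in cluster 3, -0.51 (-0.76 to -0.25) in cluster 7, -0.50 (-0.82 to -0.19) in cluster 8 and -0.23 (-0.48 to 0.02) in cluster 2, where the interval included 0.

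The other 3 members did not go the same way in every macrophage-like cluster. Cxcl9 was lower in the library labelled 4T1m in cluster 6, at -1.18 (-1.37 to -0.99), and higher in clusters 2 and 3, at 0.78 (0.47 to 1.08) and 2.10 (1.18 to 3.19). These values leaned on few cells. Without the 5% of cells of each cluster and library that held the most Cxcl9, the ratio was -0.51 in cluster 6, -0.43 in cluster 2 and 0.97 in cluster 3. In cluster 2 of the library labelled 4T1m, 1 cell held 71 of the 174 UMIs, and in cluster 3 of the library labelled 4T1p only 10 UMIs were counted. The intervals of clusters 7 and 8 included 0, at -0.15 (-1.79 to 1.73) and -0.51 (-1.08 to 0.05), and the ratio of cluster 8 was -1.86 without the 5% of cells with the most Cxcl9. In cluster 6, the 7 and 6 cells left out held 612 of 853 and 175 of 322 Cxcl9 UMIs.

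Ccl5 was higher in cluster 6 of the library labelled 4T1m, at 0.51 (0.41 to 0.60), and lower in cluster 3, at -0.78 (-0.93 to -0.64), in cluster 7, at -0.75 (-1.22 to -0.27), and in cluster 2, at -0.56 (-1.09 to -0.06). Both main values kept their direction without the 5% of cells with the most Ccl5, at 0.81 in cluster 6 and -0.76 in cluster 3. Cxcl10 was close to even in cluster 6, at 0.16 (0.05 to 0.26), and lower in the library labelled 4T1m in cluster 3, at -0.76 (-0.93 to -0.59), and in cluster 8, at -1.02 (-1.40 to -0.64). In cluster 2 it was 0.60 (0.14 to 1.07), but -0.27 without the 5% of cells with the most Cxcl10, and in cluster 7 it was -0.29 (-0.64 to 0.08). Cluster 3 thus held less Cxcl10, Cxcl16 and Ccl5 per UMI in the library labelled 4T1m, while cluster 6 held slightly more Cxcl10 and more Ccl5. The depth of the cells was alike in both, with medians of 15946.5 and 14642.5 UMIs in cluster 6 and 11187.5 and 11409.5 in cluster 3.

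**Figure D4:**
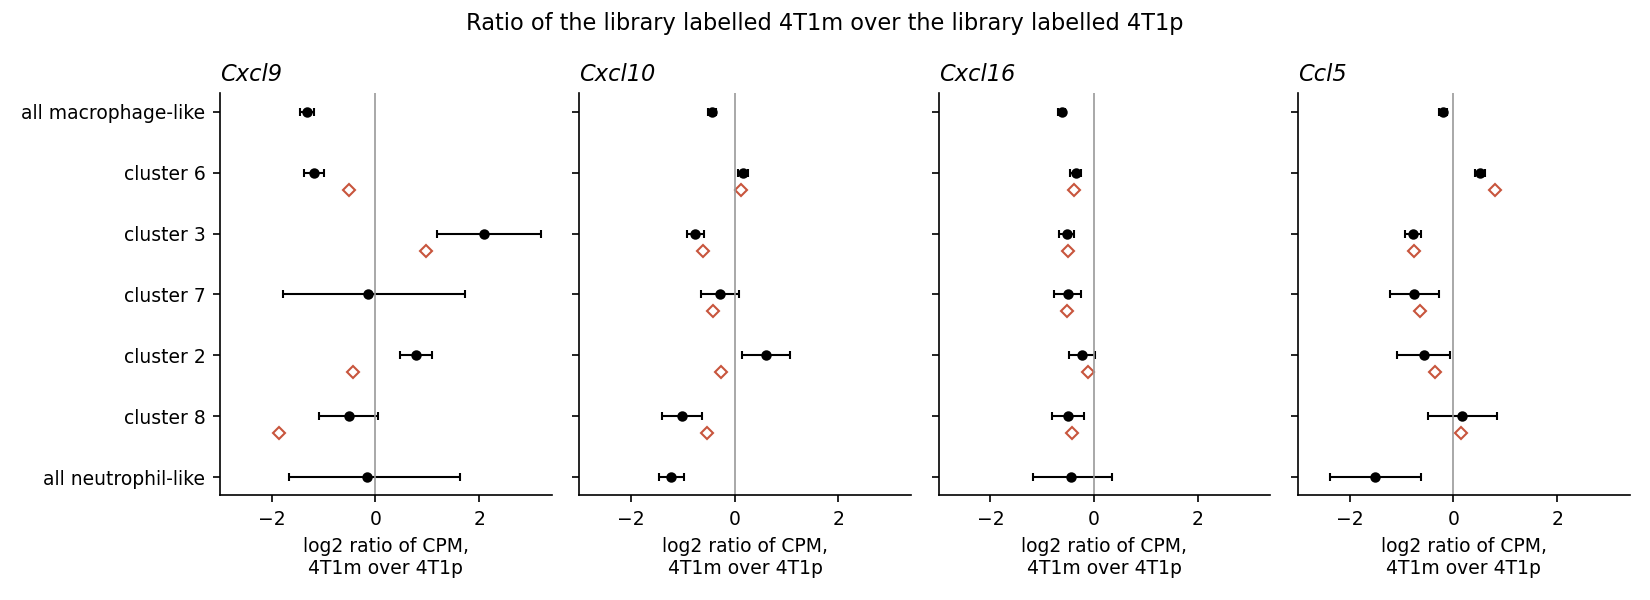
Log2 ratio of CPM of the library labelled 4T1m over the library labelled 4T1p (x axis) for each chemokine in all macrophage-like cells, in each macrophage-like cluster and in all neutrophil-like cells (y axis); black points with 95% binomial intervals use all cells, and open diamonds leave out the 5% of cells of each cluster and library with the most UMIs of the gene. Cxcl16 lies left of 0 in all 5 clusters, and Cxcl9 turns from 0.78 to -0.43 in cluster 2 without its top cells.

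In neutrophil-like cells Cxcl10, the one member well above the share of most macrophage markers there, had a log2 ratio of -1.23 (-1.47 to -0.98). Of the 2 members with at least 50 UMIs there, Cxcl10 and Cxcl16, it was the 1 beyond 1 in size. Without the 1% of cells with the most Cxcl10 UMIs it was -2.36, and with each cluster weighted equally -0.92. Of the 4491 genes with at least 50 UMIs in these cells, 10.4% were beyond 1 in either direction, 3.23% lower and 7.17% higher, and the median was 0.06. A ratio below that of Cxcl10 was found for 1.76%, which with the libraries exchanged would be the share above it. It was lower in cluster 0, at -1.11 (-1.39 to -0.83), and in cluster 9, at -1.24 (-2.03 to -0.41), while the intervals of clusters 4 and 5 included 0, at -0.57 (-1.56 to 0.58) and 0.23 (-1.69 to 2.71). The other 3 members had 5 to 59 UMIs per library in these cells, near the share found for most macrophage markers, and their ratios are not read as differences.

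The interferon response genes differed between the libraries in the same cells, in directions that rest on the doubted labels. Of 12 genes of a type I interferon response list (Isg15, Rsad2, Ifit1 and others), 11 had at least 50 UMIs in neutrophil-like cells, and 10 of these were lower by more than 1 in the library labelled 4T1m, with a median log2 ratio of -1.91, against 3.23% of all genes there. Isg15, a ubiquitin-like modifier, stood at 2569 and 701 CPM in the libraries labelled 4T1p and 4T1m, a log2 ratio of -1.87 (-1.96 to -1.79), and Rsad2, the antiviral enzyme viperin, at 1123 and 313 CPM, a log2 ratio of -1.84 (-1.97 to -1.71). Of 24 genes of an interferon-gamma response list, 19 had at least 50 UMIs there and 10 were lower by more than 1, with a median of -1.001. In macrophage-like cells the type I list had 4 of 12 genes lower and 1 higher by more than 1, with a median of -0.70. The interferon-gamma list had 6 of 22 lower and 0 higher, with a median of -0.72, where 2.01% of all genes were lower and 7.51% higher. Of 9 genes for the interferon-gamma ligand, its receptor and its signaling, 8 had at least 50 UMIs, with a median of -0.16, and Jak2, a kinase of the receptor, was higher by 1.23 (0.99 to 1.47). On the interferon-gamma response list, the MHC class II genes H2-Aa, H2-Ab1 and H2-Eb1 and their invariant chain gene Cd74 ran from -1.20 to -1.05. They were 4 of its 6 genes lower by more than 1. NF-kB targets went the other way in macrophage-like cells, with a median of 0.96 and 4 of 11 genes higher by more than 1 against 7.51% of all genes, among them Cxcl1, which attracts neutrophils, at 1.34 (1.30 to 1.38) and the prostaglandin synthase gene Ptgs2 at 2.06 (1.99 to 2.13). In neutrophil-like cells 2 of the 11 were higher by more than 1, Nfkb1 at 1.12 (0.74 to 1.52) and Rel at 1.03 (0.77 to 1.29), against 7.17% of all genes, and the median was 0.08. These lists were drawn up with earlier results of the same libraries known, so they are no independent evidence of direction.

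Cells were then ranked by the share of their UMIs from a response list and cut into 4 bins of equal size, separately for each library and lineage, as a description. The 4 members and the MHC class II genes were left out of the lists, and cells with fewer than 1000 UMIs were left out of the ranking. Of the 684 and 730 macrophage-like cells, this left 122 or 123 per bin in the library labelled 4T1p and 166 per bin in the library labelled 4T1m. In macrophage-like cells Cxcl9 followed the interferon-gamma list, from 36.6 CPM in the lowest to 885 CPM (821 to 952) in the highest bin of the library labelled 4T1p and from 18.7 to 267 CPM (243 to 293) in the library labelled 4T1m. Across bins of the type I list it ran at 115, 347, 302 and 205 CPM and at 58.1, 29.7, 145 and 149 CPM, without such a climb. In the library labelled 4T1p the top interferon-gamma bin thus held 714 Cxcl9 UMIs and the top type I bin 280. In cluster 6 of that library 7 cells held 612 Cxcl9 UMIs, so a few cells can move a bin by more than its counting interval. The bins were not recounted without such cells. Each bin also pools macrophage-like clusters whose Cxcl9 levels differ, and the makeup of the bins by cluster was not counted. Whether the contrast between the lists reflects the clusters that fill a bin was not tested. Cxcl10 went from 345 to 983 CPM and from 72.9 to 859.6 CPM between the lowest and the highest bin of the type I list, and Ccl5 from 292 to 958 CPM and from 30.4 to 1190.4 CPM. Cxcl10 also climbed with the interferon-gamma list in the library labelled 4T1m, at 183, 286, 471 and 666 CPM, and ran at 439.8, 419, 729 and 672 CPM in the library labelled 4T1p. Across bins of that list Ccl5 stayed between 568 and 631 CPM in the library labelled 4T1p and went from 145 to 842 CPM in the library labelled 4T1m. Bins of the 11 NF-kB targets held Cxcl10 at 60.2, 470, 642 and 622 CPM in the library labelled 4T1p. In the library labelled 4T1m Cxcl10 stood at 220, 503, 398 and 404 CPM there. Ccl5 ran at 88.7, 261, 613 and 825 CPM and at 113, 508, 776 and 399 CPM. A rise from the lowest bin was thus not particular to the interferon lists.

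Depth moved with some of these bins. The median cell of the lowest and of the highest type I bin had 2432 and 11294.5 UMIs in the library labelled 4T1p and 3198.5 and 11314 in the library labelled 4T1m, and its part in the result was not tested. For the interferon-gamma list the medians were 6386 and 2689.5 UMIs in the library labelled 4T1p and 8444 and 9264.5 in the library labelled 4T1m. For the NF-kB targets they were 1820 and 14152 UMIs in the library labelled 4T1p and 2850 and 11281.5 in the library labelled 4T1m. In neutrophil-like cells the median depth of a bin of the interferon lists ran from 2207 to 3274 UMIs. There Cxcl10 was highest in the top bin of the interferon-gamma list, at 963 and 385 CPM, against 135 and 17.0 CPM in the lowest. The top bin of the type I list had 546 and 391 CPM against 76.3 and 37.6 CPM. In macrophage-like cells Cxcl16 went from 527 to 861 CPM and from 339.9 to 618 CPM between the lowest and the highest bin of the interferon-gamma list.

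**Figure D5:**
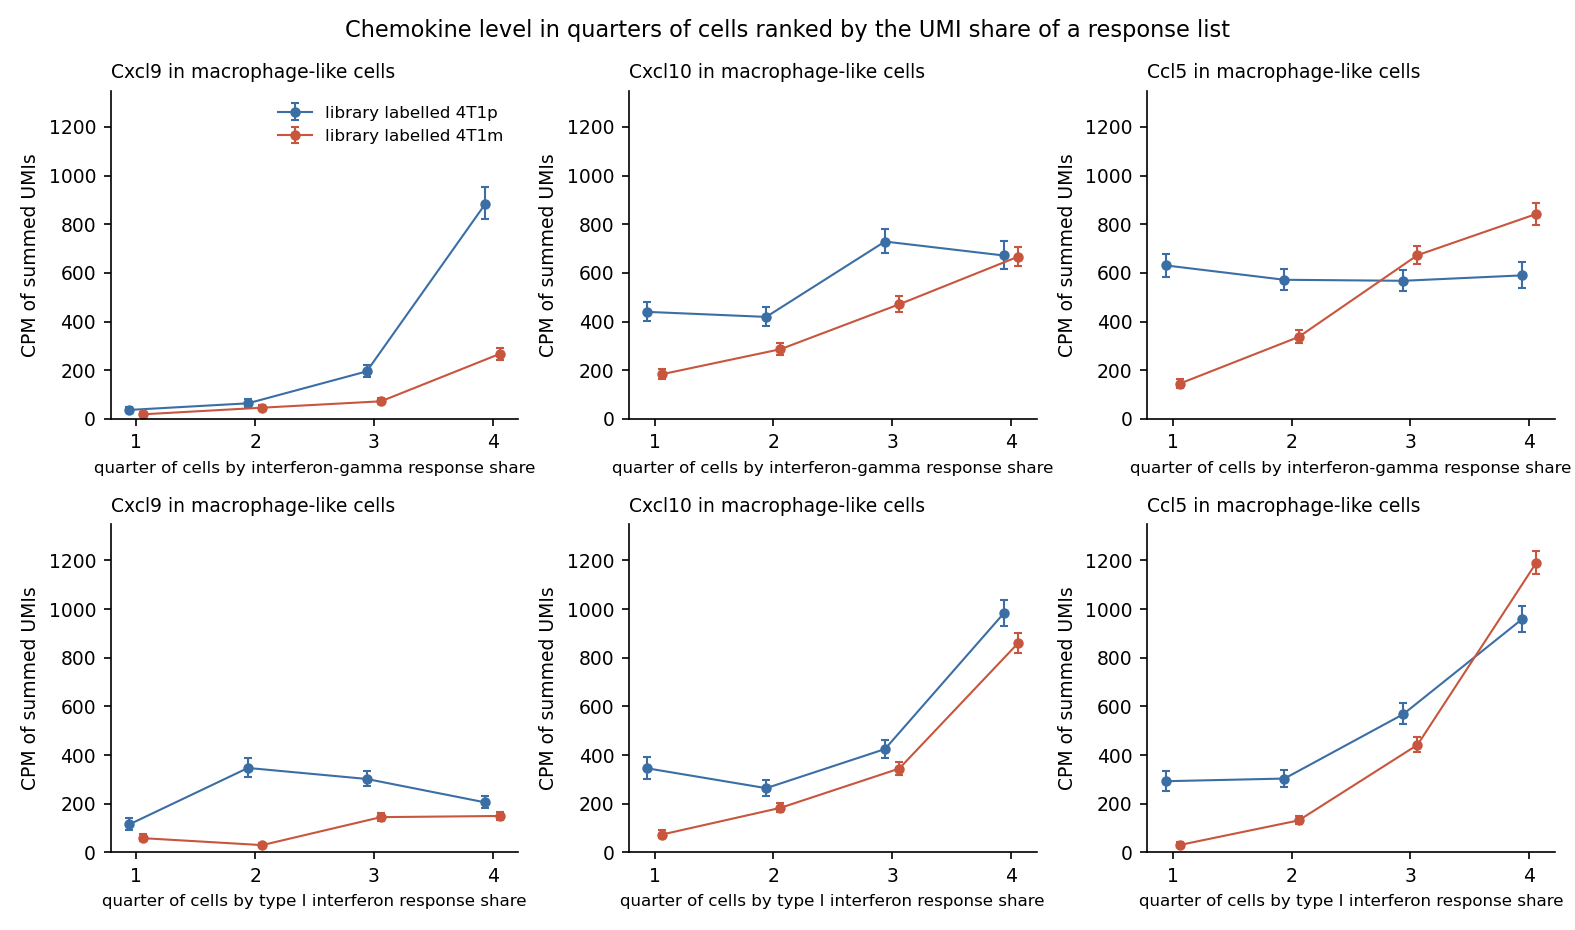
Level of Cxcl9, Cxcl10 and Ccl5 (y axis, CPM) in macrophage-like cells cut into bins (x axis) by the share of their UMIs from the interferon-gamma response list (upper row) or the type I interferon response list (lower row), with exact 95% Poisson intervals. Cxcl9 peaks in the top interferon-gamma bin, at 885 and 267 CPM, and Ccl5 in the top type I bin, at 958 and 1190.4 CPM.

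Within a cell, Ccl5 and Cxcl10 were the one pair whose shares with and without the partner had separate intervals in both libraries. After thinning, Cxcl10 had a UMI in 31.9% (22.5 to 42.5) of macrophage-like cells with Ccl5 and in 17.3% (13.7 to 21.4) of those without it in the library labelled 4T1p. In the library labelled 4T1m it was 36.4% (28.2 to 45.2) and 12.2% (9.56 to 15.3). For Cxcl9 and Cxcl10, the pair of CXCR3 ligands, no such link held in both libraries. Cxcl10 was found in 16.7% (7.92 to 29.3) of cells with Cxcl9 and 20.5% (16.8 to 24.6) of those without in the library labelled 4T1p, and in 31.4% (16.9 to 49.3) and 16.2% (13.4 to 19.3) in the library labelled 4T1m. In cluster 6 alone, the intervals with and without the partner overlapped for every pair in both libraries.

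Across 22 groups (clusters by library with at least 20 cells) and 6419 genes, likeness was taken as the Pearson correlation of log2(CPM + 10). It is a description, since the groups share libraries and depth. Cxcl9 was most like Adamdec1 (0.94), Sh2d1b1 (0.93), Slamf8 (0.90), Mgl2 (0.89) and Htr7 (0.88). Adamdec1 encodes a metalloprotease of macrophages, Slamf8 a surface receptor of the SLAM family and Mgl2 a C-type lectin. Cxcl16 was most like Ms4a6d (0.98), Axl (0.98), Ctsc (0.98), C1qc (0.97) and Apoe (0.96), of which C1qc, a complement subunit, and Apoe, a lipid carrier, were also on the macrophage marker list. Cxcl10 was most like Tgm2 (0.85), Ifit2 (0.83), Tgfbi (0.82), Tnf (0.82) and Bcl2a1a (0.82), and Ccl5 most like Src (0.94), Cadm1 (0.88), Frmd4a (0.88), Prdm1 (0.88) and Dst (0.87). Bcl2a1a belongs to a family of near-identical copies, so its counts are uncertain. Cxcl9 and Cxcl10, though neighbors in the genome, had a correlation of 0.54 with each other, below that of Cxcl16 with Ccl5 (0.80) and with Cxcl9 (0.79). Ccl5 had similar values with Cxcl10 (0.54) and with Cxcl9 (0.56), so the lower value was not particular to the neighbors.

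The CXC receptors of the members were sparse on the myeloid cells, whereas Ccr1, a receptor of CCL5, was not. Ccr1 was counted at 285 and 357 CPM in macrophage-like cells of the libraries labelled 4T1p and 4T1m, a log2 ratio of 0.33 (0.23 to 0.43). In neutrophil-like cells Ccr1 stood at 1039 and 1064 CPM, with a log2 ratio of 0.03 (-0.07 to 0.14). Cxcr3, the receptor of CXCL9 and CXCL10, had 5 UMIs in the macrophage-like cells of each library, and Cxcr6, the receptor of CXCL16, had 0 and 2. In the T cell-like cells Cxcr3 had 2 and 0 UMIs and Cxcr6 0 and 2, with only 7 and 22 cells, so T cell receptors were hardly measurable with so few cells. Ifng, the interferon-gamma gene itself, had 0 UMIs in macrophage-like and neutrophil-like cells of both libraries, which allows up to 0.693 and 0.440 CPM in macrophage-like cells. All of its UMIs lay in T cell-like cells, 19 in 28.6% of the 7 cells of the library labelled 4T1p and 6 in 4.55% of the 22 cells of the library labelled 4T1m.

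The enzymes that release or trim the members were counted too. Adam10, which sheds CXCL16, stood at 93.8 and 140.1 CPM in macrophage-like cells, a log2 ratio of 0.58 (0.41 to 0.75), and Adam17 at 88.8 and 155 CPM, a log2 ratio of 0.80 (0.63 to 0.97), both opposite in direction to Cxcl16. Mmp9, a gelatinase, stood at 37.4 and 113 CPM, a log2 ratio of 1.59 (1.35 to 1.85). It was the 1 of the 3 list genes with at least 50 UMIs that lay beyond 1, where 7.51% of all genes were higher by more than 1. Only 3.07% and 10.8% of macrophage-like cells had a UMI of Mmp9, and the sum mixes unlike clusters. Its level was 93.4 and 180 CPM in cluster 3, 138 and 154 CPM in cluster 7 and 1.49 and 1.16 CPM in cluster 6. In neutrophil-like cells, where it was higher, Mmp9 was at 409 and 399 CPM. Dpp4, which trims CXCL10, had 5 and 20 UMIs. Of 13 other T cell attracting chemokines, Cxcl11 was not analysed here, and 4 of the 12 others had at least 50 UMIs in macrophage-like cells, with a median log2 ratio of -0.39. Ccl3 and Ccl4 encode macrophage inflammatory proteins that attract T cells and monocytes. In macrophage-like cells they were nearly even between the libraries, with log2 ratios of 0.03 (-0.02 to 0.07) and 0.11 (0.09 to 0.14). Their levels there were above those of the members, 1439 and 1466 CPM for Ccl3 and 6141 and 6642 CPM for Ccl4. Ccl8 was lower in the library labelled 4T1m, with 933 and 301 CPM and a log2 ratio of -1.63 (-1.71 to -1.55). Ccl17 and Ccl22, which draw CCR4-bearing T cells, had 32 and 29 and 3 and 34 UMIs. In neutrophil-like cells Ccl3 was higher than in macrophage-like ones, at 7532 and 6114 CPM, a log2 ratio of -0.30 (-0.34 to -0.26). Ccl4 stood at 2737 and 1737 CPM there, a log2 ratio of -0.66 (-0.73 to -0.58).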

How the data were processed

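Single-cell libraries of GR-1+ tumor cells were made with the 10x 3′ v3 chemistry, 1 per tumor line. The authors deposited unnormalized counts of UMIs for every gene in every barcode, made with Cell Ranger (software 3.1.0 in the file headers) on mm10. Barcodes with 250 to 5000 genes, at most 27000 UMIs and at most 12.5% mitochondrial UMIs were kept, which left a median of 2015 and 2739 UMIs per cell in the libraries labelled 4T1p and 4T1m. Cells were clustered with Seurat 5.3.0 and sctransform 0.4.2 (3000 variable genes, 11 components, resolution 0.8), without the 4 chemokines. A cluster took the lineage whose markers were found in the largest relative share of its cells. T and B cell-like clusters also needed a mean share of 25%, and a cluster with a median depth in a library below that library's median divided by 3 and no marker among its 10 leading genes stayed unnamed.

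Counts were summed per cluster or lineage and library and given per 1000000 UMIs (CPM), with exact 95% intervals from scipy 1.17.1 that cover counting error only. Where a count was 0, a limit of 3 counts was used. With 1 library per line no test was run. The scripts were tested on simulated data. Genes with at least 50 UMIs entered the comparison over all genes. Doublets were not removed in the main result; leaving out the highest Scrublet scores (scanpy 1.11.5) was an alternative, beside a stricter mitochondrial limit, a Ptprc filter, per-cell means, thinning, marker shares in place of clusters and leaving out top cells. The members, lists and markers were chosen with earlier results of these data known. Named genes were the members, list genes with their role, the 5 leading genes of a cluster and the 5 most alike genes of a member. Cxcl11 was not analysed here.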

Additional observations from a re-analysis of the deposited data

Results flagged for a closer look

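The ratio of the library labelled 4T1m over the library labelled 4T1p went in opposite directions in different macrophage-like clusters for 3 of the 4 genes, on the log2 scale. The difference between clusters itself was not tested, since each cluster had 1 library per line. Cxcl9 stood at -1.18 in cluster 6 but at 0.78 in cluster 2 and 2.10 in cluster 3. Cxcl10 stood at 0.16 in cluster 6 and 0.60 in cluster 2 but at -0.76 in cluster 3 and -1.02 in cluster 8. In cluster 2 both turned direction without the 5% of cells with the most UMIs of the gene, to -0.43 for Cxcl9 and -0.27 for Cxcl10. Ccl5 stood at 0.51 in cluster 6 but at -0.56 in cluster 2, -0.78 in cluster 3 and -0.75 in cluster 7.

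All 4 chemokines were also counted in barcodes that the filter left out, above the limit that a count of 0 allows. In the libraries labelled 4T1p and 4T1m those barcodes held Cxcl9 at 146 and 75.1 CPM, Cxcl10 at 454 and 331 CPM, Cxcl16 at 439 and 307 CPM and Ccl5 at 281 and 184 CPM. They carried 30.6% and 28.4% of all Cxcl9 UMIs.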

How the results depend on the processing

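Over 12 results and 134 alternative values, 99 moved by less than their counting interval, 31 by more, and 4 turned direction. No paired analysis was possible because each line had 1 library. All values are log2 ratios. Alternatives with another cell set, clustering or marker rule also redrew the lineages. Macrophage-like cells then numbered 856 with the 5% mitochondrial limit, 1844 without the highest Scrublet scores and 1924 with marker shares. For the macrophage-like over the neutrophil-like level, Cxcl9 ran from 4.28 to 5.35 and stayed within its counting interval under each alternative that gave a value. That interval is wide, since it rests on only 5 and 17 neutrophil-like UMIs. With at most 5% mitochondrial UMIs the others were 1.69 (Cxcl10), 5.20 (Cxcl16) and 5.87 (Ccl5), and without the 1% of cells with the most UMIs of the gene 2.26, 5.38 and 7.80. For Cxcl9 that last setting gave no value, since no UMI was left in the neutrophil-like cells of 1 library. Cxcl10 was 1.02 after thinning and 1.13 by per-cell means. Ccl5 was 5.73 without the highest Scrublet scores, 4.64 with marker shares in place of clusters and 5.94 in cells with Ptprc.

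For 4T1m over 4T1p in macrophage-like cells, the 5% mitochondrial limit gave -1.98 (Cxcl9), -0.35 (Cxcl10), -0.81 (Cxcl16) and -0.32 (Ccl5), and per-cell means -1.05, -0.073, -0.47 and 0.10, the last reversed. With clusters weighted equally, chosen after the data were seen, the values were -0.065, -0.24, -0.40 and -0.0027. Thinning gave -0.70 for Cxcl16 and a reversed 0.12 for Ccl5. Without the top 1% of cells Cxcl9 was -0.99 and Ccl5 -0.093, and in cells with Ptprc Ccl5 was -0.31.

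In neutrophil-like cells Cxcl10 was -2.36 without the top 1% of cells and -0.92 with clusters weighted equally. Ccl5 was -3.18 with the mitochondrial limit, -2.86 without the highest Scrublet scores, -2.84 after thinning and a reversed 0.073 in cells with Ptprc, where Cxcl9 also reversed, to 0.27. Without the 5% of cells with the most UMIs, also chosen after the data were seen, cluster 2 reversed for Cxcl9, to -0.43, and for Cxcl10, to -0.27. The cause was not tested for any of these. Cxcl9, Cxcl16 and Ccl5 in neutrophil-like cells had too few UMIs for their ratios to be read.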
